A study of Homo sapiens with 6 samples.

Results

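The genes described here are the core of the cellular oxygen-sensing pathway: the hypoxia-inducible factor (HIF) subunits HIF1A, EPAS1 and ARNT, the degradation factor VHL, the prolyl hydroxylases EGLN1, EGLN2 and EGLN3, and the HIF-responsive genes BNIP3, CA9 and ADM. They were taken by name from the deposited gene table, and 10 of its 57281 genes matched, with no name occurring more than once. The cells were HaCaT, a spontaneously immortalised human keratinocyte line, and all cultures were kept for 24 h with 10 ng/ml of the cytokine TGF-β1 (transforming growth factor β1). The control group had TGF-β1 alone (n = 3), and the other group had TGF-β1 together with silymarin, an extract of milk thistle seed, at 31.25 µg/ml (n = 3). The series' description calls the 3 samples of a group biological replicates, and both groups carry the cytokine. The oxygen level of the cultures is not stated in the labels. The values therefore compare silymarin with no silymarin under TGF-β1, and not low with normal oxygen.

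As background, HIF is a pair of proteins, an oxygen-labile α subunit, encoded by HIF1A or EPAS1, and a constitutive partner encoded by ARNT. When oxygen and iron are at hand, EGLN enzymes hydroxylate prolines of the α subunit, and the VHL protein then recruits a ubiquitin ligase that marks it for degradation. This control acts on the protein, so the transcript of HIF1A or EPAS1 is not a measure of HIF activity. Stabilised HIF binds short promoter or enhancer motifs and activates genes of glucose use, blood vessel growth, pH control and mitophagy, and also EGLN1 and EGLN3, which forms a feedback loop. In skin, where the outer layers receive little blood, HIF genes are studied in keratinocyte migration and wound closure.

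The short sequences below lie just upstream of the RefSeq start of 4 genes with a textbook place among HIF-activated genes, and are shown because they hold the core letters of the HIF binding motif, ACGTG or GCGTG. Capitals mark each match on either strand (CACGT and CACGC are the matches read from the other strand, and an overlapping pair reads CACGTG), all are written 5′ to 3′ on the gene's strand, and their build is GRCh38.p14. In GENCODE 29, which has transcripts that start earlier, the stretches of EGLN1, CA9 and ADM lie wholly within exons of these genes (that of CA9 also within an ARHGEF39 exon), and only that of BNIP3 lies outside every annotated gene.
BNIP3 (chr10:131982015-131982074, minus strand): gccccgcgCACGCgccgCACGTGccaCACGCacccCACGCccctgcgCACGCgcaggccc
CA9 (chr9:35673897-35673926, plus strand): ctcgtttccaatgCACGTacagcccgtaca
EGLN1 (chr1:231422288-231422317, minus strand): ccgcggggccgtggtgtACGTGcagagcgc
ADM (chr11:10304959-10304988, plus strand): agagcaggagcgcGCGTGgctgaggaaaga

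Windows of 250 bases upstream of a RefSeq start were read for 9 of the 10 genes, 11 windows in all, and 7 of the 11 held a match. The second windows of HIF1A and EGLN2 held none. Over all 35116 RefSeq windows of that length, 43.2% held a match, so its presence is common. BNIP3 had 6 matches between bases -143 and -100 from its start, 2 of which are the same overlapping letters read on both strands. At least 6 matches occurred in 0.646% of all windows. BNIP3's window was 81.6% G and C, against a median of 58.0% over all windows. CA9 had 1 match at bases -18 to -14, EGLN1 had 1 at -13 to -9 and ADM had 1 at -101 to -97. No match was found in the windows of EGLN3 and ARNT either, which says only that these letters were not in those stretches. A match of letters is a description of the sequence and not a bound site.

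The reads recovered from the table numbered 20240542 to 30279391 in 5 libraries, while for TGF-β1 replicate 3 only normalized counts were used, as its step between values was too near 1 for the reads to be accepted as recovered. Values are given as normalized read counts, that is, reads divided by the authors' size factor for the library. Silymarin replicate 2, the shallowest library, stood apart on the second principal component (25.9, against -13.3 in both other silymarin libraries). Its deviations from the group mean ran with GC content across genes (Spearman correlation -0.56, against 0.38 and 0.43 in the others). Genes are not independent replicates. Deviations of a gene from its group mean cancel out over the 3 libraries, so the 3 correlations are not independent either. Of the keratinocyte markers KRT5, KRT14, TP63, DSG3, ITGB4 and PKP1, 6 of 6 were abundant, with summed values of 242608 to 248912 normalized counts with TGF-β1 and 138247 to 155407 with silymarin. Of these markers, 5 fell and TP63 did not pass the threshold (log2 fold change -0.10, limma adjusted p = 0.216). The part of this fall in the results below was not tested. Markers of other cell types were low except the fibroblast collagen gene COL1A1, which went from 3386 ± 101 to 1903 ± 171 normalized counts (SD, n = 3). The sums were 120 to 136 and 207 to 260 for 5 endothelial markers (TIE1 at 0), 77.8 to 83.9 and 70.1 to 91.9 for 4 melanocyte markers (TYR at 0), and 16.2 to 21.2 and 25.2 to 38.1 for 4 leukocyte markers. Among 6 fibroblast markers, whose sums were 3327 to 3508 and 1715 to 2054, DCN was at 0. Within the endothelial list CDH5 rose from 34.1 ± 4.64 to 157 ± 8.27 normalized counts (SD, n = 3). VWF, the other tested endothelial marker, went from 93 ± 2.99 to 71.3 ± 18.8 and was not called (log2 fold change -0.41, limma adjusted p = 0.0801). The part of these markers in the results was not tested. In bulk RNA, fewer cells of a type and less RNA per cell cannot be told apart.

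With silymarin, transcripts of the α subunits HIF1A and EPAS1, of VHL, of the hydroxylase EGLN1 and of the HIF-responsive genes BNIP3 and CA9 rose, whereas ARNT, EGLN3 and ADM fell. Changes ran from a log2 fold change of -0.55 for EGLN3 to 1.37 for CA9, and 2 genes, BNIP3 and CA9, passed a 2-fold change. Of the 9 genes tested by limma, 6 were called higher and 3 lower at an adjusted p under 0.05. Over all 17296 tested genes 34.2% were called, 16.0% higher and 18.2% lower. The groups did not overlap for any of the 9, and the same held for 47.1% of all tested genes. The median absolute log2 fold change was 0.55 for the 9 genes and 0.18 over all tested genes. These counts describe genes chosen with earlier results of these data known, and CA9 passed the filter on low values only through its silymarin libraries. Of the 7916 genes averaging 500 normalized counts or more, 40.2% were called.

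**Figure D1:**
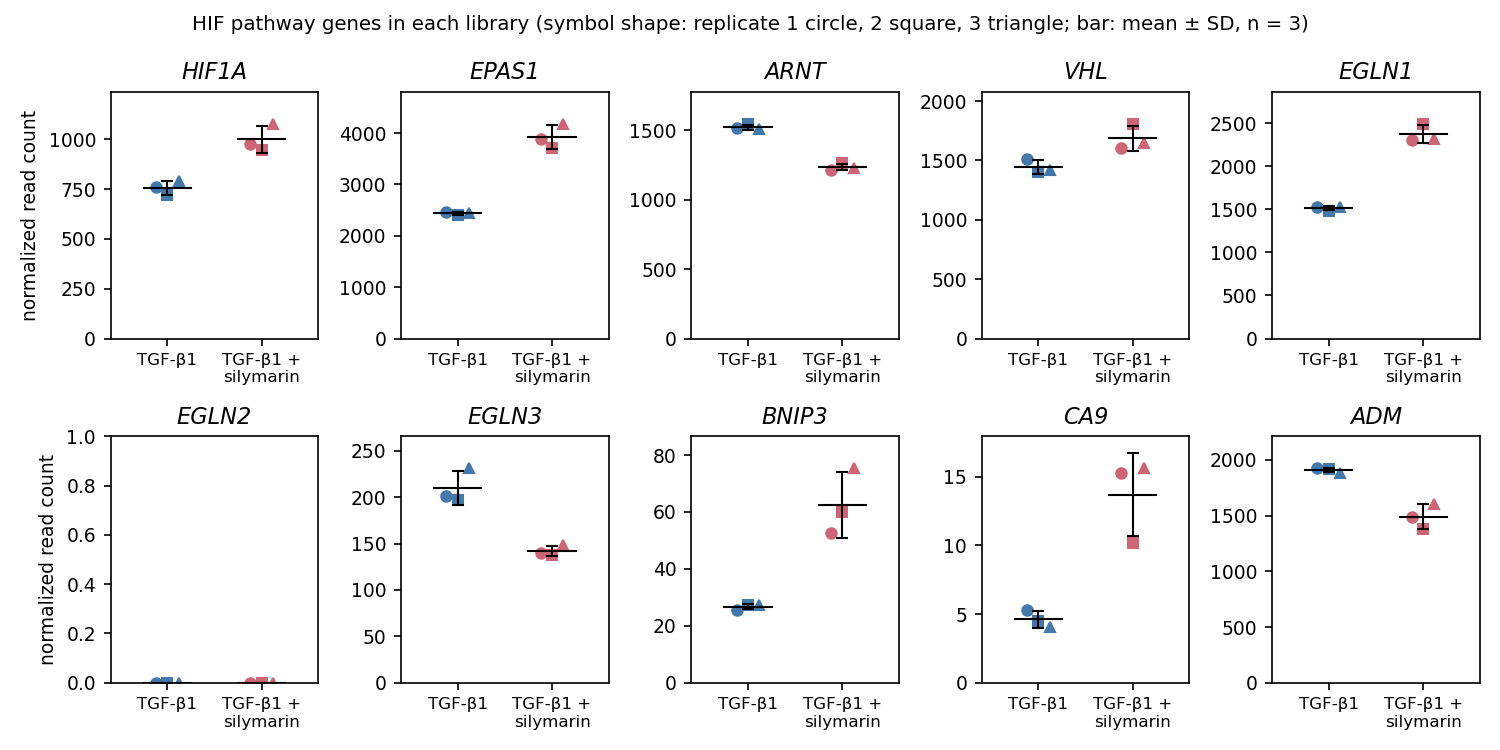
Normalized read counts (vertical axes, starting at 0, each gene on its own scale) of the 10 oxygen-sensing genes in the 3 libraries with TGF-β1 and the 3 with TGF-β1 plus silymarin; symbols are replicates, the horizontal bar is the mean and the whiskers are 1 SD. The groups lie apart for 9 genes, and EGLN2 is listed at 0 in every library.

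EPAS1, the α subunit best known from endothelium and kidney, showed the lowest adjusted p of the 9. It lies on chromosome 2, 46293667 to 46386703 (positions are of GENCODE 29 on GRCh38). Its values were 2454, 2409 and 2441 normalized counts in TGF-β1 replicates 1, 2 and 3, and 3891, 3711 and 4174 with silymarin. Every silymarin library lay well above the TGF-β1 libraries, which were within a narrow range. The means were 2435 ± 23.4 and 3925 ± 234 (SD, n = 3), a log2 fold change of 0.69 (SE 0.053, limma adjusted p = 4.2e-07).

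HIF1A, the more widely expressed α subunit (chromosome 14, 61695513 to 61748259), rose less. It had 762, 719.5 and 789.9 normalized counts with TGF-β1 and 978, 946 and 1076 with silymarin. The lowest silymarin library was still above the highest TGF-β1 library. The log2 fold change was 0.40 (SE 0.067, 95% interval 0.25 to 0.54, adjusted p = 0.000454). On the opposite strand, the long noncoding RNA HIF1A-AS2 went from 73.9 ± 15.9 to 115 ± 14.2 (SD, n = 3; log2 fold change 0.64, adjusted p = 0.00647). HIF1A-AS1, which shares 117 exon bases with HIF1A, had 8.73 ± 1.43 and 10.2 ± 0.711 and did not pass (adjusted p = 0.645). Whether counting used the strand is not stated, so HIF1A and its antisense genes may share reads. Both antisense genes were named after their values were seen.

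ARNT, the shared β subunit (chromosome 1, 150809705 to 150876768), moved against the α subunits. It was at 1513, 1543 and 1510.0 normalized counts with TGF-β1 and at 1215, 1260.3 and 1229 with silymarin. Both groups were tight and lay apart. The fall was from 1522 ± 18.3 to 1235 ± 23.4 (SD, n = 3), a log2 fold change of -0.30 (SE 0.052, adjusted p = 0.000535). Its brain-enriched paralog ARNT2 was scarce, at 22.3 normalized counts on average with TGF-β1 and 16.6 with silymarin, and was not called. HIF3A, another α subunit gene, averaged 0.295 and 0.288 and was not tested.

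VHL, the substrate receptor of the ligase (chromosome 3, 10141008 to 10152220), had the smallest change of the 9. It was at 1511, 1400.1 and 1422 normalized counts with TGF-β1 and at 1601, 1806 and 1650.4 with silymarin. TGF-β1 replicate 1 and silymarin replicate 1 were close to each other, without overlap of the groups. The log2 fold change was 0.22 (SE 0.060, adjusted p = 0.0118). Leaving out TGF-β1 replicate 2 or 3 ended the call (adjusted p = 0.0666 and 0.0588), as did the recovered reads of 5 libraries, where edgeR gave an adjusted p of 0.0519 and DESeq2 0.0785.

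The 3 prolyl hydroxylase genes gave 3 different pictures. EGLN1, the main hydroxylase of HIF1A protein in normal oxygen (chromosome 1, 231363751 to 231425044), was at 1527, 1486 and 1530.2 normalized counts with TGF-β1 and at 2301, 2490.1 and 2323 with silymarin. Each silymarin library exceeded each TGF-β1 library by a wide margin. The means were 1514 ± 24.5 and 2371 ± 103 (SD, n = 3), a log2 fold change of 0.65 (SE 0.053, adjusted p = 7.3e-07).

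EGLN3, the hydroxylase usually most inducible by hypoxia (chromosome 14, 33924231 to 34462774), fell. It was at 201, 197 and 231 normalized counts with TGF-β1 and at 140.1, 138 and 148 with silymarin. The silymarin libraries were close together and below all TGF-β1 libraries. The log2 fold change was -0.55 (SE 0.101, 95% interval -0.77 to -0.34, adjusted p = 0.000814).

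EGLN2, the remaining hydroxylase (chromosome 19, 40798996 to 40808433), was listed at 0 in 6 of 6 libraries and was not tested. Its locus is crowded: the readthrough gene RAB4B-EGLN2 covers 2012 of its exon bases on the same strand, and it held 3.46 to 6.56 normalized counts. The upstream gene RAB4B was also listed at 0. Another overlapping gene on the same strand, CTC-490E21.12, which shares 119 exon bases with EGLN2, went from 466 ± 32 to 736 ± 44.5 (SD, n = 3; log2 fold change 0.66, adjusted p = 1.5e-05). How reads within several overlapping genes were counted is not stated, so the EGLN2 values are given only as listed. Whether reads of CTC-490E21.12 come from EGLN2 was not tested. These neighbours were named after their values were seen.

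EGLN1 and EGLN3 thus changed in opposite directions between the groups, and their ratio was also taken within each library. The log2 ratio of EGLN3 to EGLN1 was -2.92, -2.91 and -2.73 with TGF-β1 and -4.03, -4.17 and -3.96 with silymarin. The ratio dropped by 1.20 without overlap. For EPAS1 to HIF1A the log2 ratio was 1.69, 1.74 and 1.63 with TGF-β1 and 1.99, 1.97 and 1.96 with silymarin, a gain of 0.29 that also showed no overlap. With 3 libraries against 3, the two-sided exact permutation test cannot go below p = 0.10. This exact permutation test gave p = 0.10 for each of 3 ratios (0.1 after Benjamini-Hochberg adjustment), which misses 0.05.

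**Figure D2:**
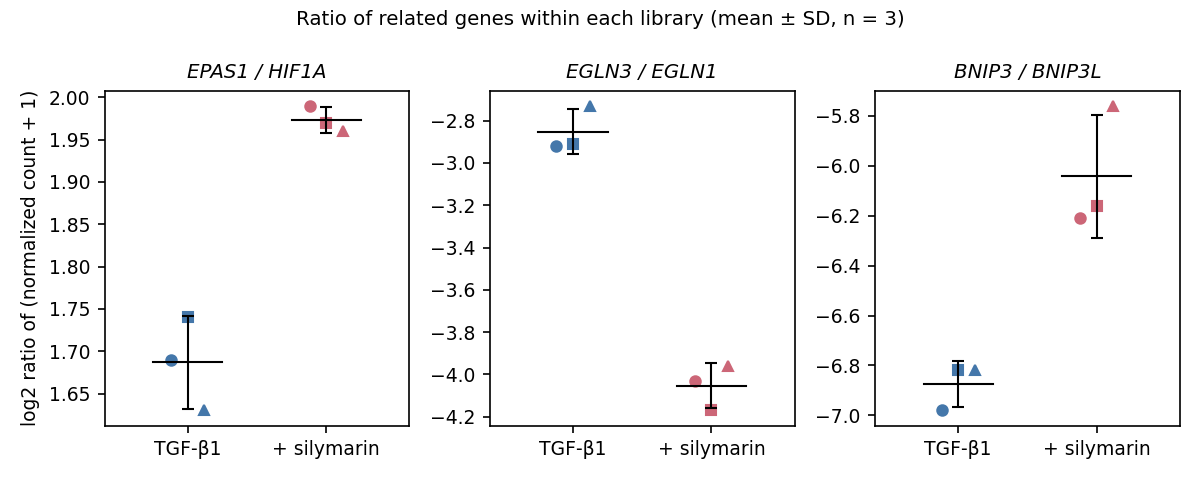
Log2 ratio of related genes within each library (vertical axes, each on its own scale) in the TGF-β1 group and the silymarin group; symbols are replicates, bars are means and whiskers 1 SD. The EGLN3 to EGLN1 ratio is lower and the other 2 ratios are higher in every silymarin library.

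BNIP3 encodes a mitochondrial outer membrane protein that marks mitochondria for mitophagy and is a classic HIF target (chromosome 10, 131966455 to 131982013). Its level was low: 25.6, 27.2 and 27.3 normalized counts with TGF-β1 and 52.5, 59.9 and 75.3 with silymarin. The 3 TGF-β1 libraries were nearly equal, and the silymarin libraries were spread but all higher. The mean went from 26.7 ± 0.931 to 62.6 ± 11.6 (SD, n = 3), 2.34 times the TGF-β1 mean, with a log2 fold change of 1.18 (SE 0.182, adjusted p = 0.00022). These values rest on 29 and 30 recovered reads in TGF-β1 replicates 1 and 2 and on 48, 47 and 87 in silymarin replicates 1, 2 and 3.

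A processed copy of the gene, BNIP3P1 on chromosome 14, moved in the same direction, from 10.5 ± 0.841 to 35.9 ± 7.04 normalized counts (SD, n = 3), with a log2 fold change of 1.66 (SE 0.243, limma adjusted p = 0.000141). With TGF-β1 it was at 11.5, 9.97 and 10.1, so it passed the filter on low values only through its silymarin libraries. The recovered reads of BNIP3P1 were 13 and 11 in TGF-β1 replicates 1 and 2, and 26, 29 and 49 with silymarin. Reads of near-identical copies may be split or dropped in counting, so the level of BNIP3 is uncertain. With the reads of both genes summed, an alternative added after the data were seen, the log2 fold change was 1.36 (adjusted p = 2.2e-05). BNIP3L, the paralog with a similar mitophagy role, was far more abundant and rose less, from 3248 ± 104 to 4157 ± 197 (SD, n = 3; log2 fold change 0.36, adjusted p = 0.000135). The log2 ratio of BNIP3 to BNIP3L was -6.98, -6.82 and -6.82 with TGF-β1 and -6.21, -6.16 and -5.76 with silymarin, without overlap (gain 0.83).

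CA9 encodes a cell-surface carbonic anhydrase that helps hypoxic cells export acid, and its promoter is a standard HIF reporter (chromosome 9, 35673856 to 35681159). It was near the detection limit: 5.3, 4.53 and 4.05 normalized counts with TGF-β1 and 15.3, 10.2 and 15.6 with silymarin. All silymarin libraries were higher, with replicate 2 the lowest of them. The recovered reads were 6 and 5 in TGF-β1 replicates 1 and 2, and 14, 8 and 18 with silymarin. The mean was 2.96 times the TGF-β1 mean, and the log2 fold change was 1.37 (SE 0.349, 95% interval 0.62 to 2.12, adjusted p = 0.00801). With a pseudocount of 10 it was 0.69, and DESeq2 on the recovered reads of 5 libraries did not call it (log2 fold change 1.49, adjusted p = 0.157). Without any 1 silymarin library CA9 no longer passed the filter and was not tested. ARHGEF39, on the opposite strand, shares 643 exon bases with CA9, which are 38.5% of the exon bases of CA9. ARHGEF39 went the other way (log2 fold change -0.93, limma adjusted p = 0.00159). It had 51.3, 58 and 63.7 normalized counts with TGF-β1 and 32.8, 24.2 and 32.9 with silymarin. Whether counting used the strand is not stated, so reads in the shared bases may have been dropped or counted for the other gene. The part of this in the CA9 values was not tested.

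ADM encodes adrenomedullin, a secreted vasodilator peptide also made by keratinocytes, and a common marker of HIF activity (chromosome 11, 10304680 to 10307397). In contrast to BNIP3 and CA9 it fell, from 1924, 1917 and 1886 normalized counts with TGF-β1 to 1489, 1378 and 1605 with silymarin. The TGF-β1 libraries were tight and lay above every silymarin library. The log2 fold change was -0.36 (SE 0.061, 95% interval -0.49 to -0.23, adjusted p = 0.000446). Of the genes for related peptides, amidation, receptors and clearance, 10 were in the table and 4 were tested, with 1 higher, 1 lower and 2 not past the threshold (34.2% of all tested genes were called). The related peptide gene ADM2 rose from 24.9 ± 2.2 to 105 ± 15.6 (SD, n = 3; log2 fold change 2.02, adjusted p = 7.9e-07). ADM5 fell by 0.91 on the log2 scale (limma adjusted p = 0.0283). With silymarin ADM5 was at 7.66, 11.5 and 9.52 normalized counts. It passed the filter on low values only through its TGF-β1 libraries (15, 23.6 and 18.2). It was not called when TGF-β1 replicate 2, TGF-β1 replicate 3, silymarin replicate 1 or silymarin replicate 3 was left out (adjusted p = 0.136, 0.0735, 0.087 and 0.0525). The receptor gene CALCRL averaged 0.969 and 0.713 normalized counts, and the receptor partner genes RAMP2 and RAMP3 were listed at 0 in all 6 libraries.

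**Figure D3:**
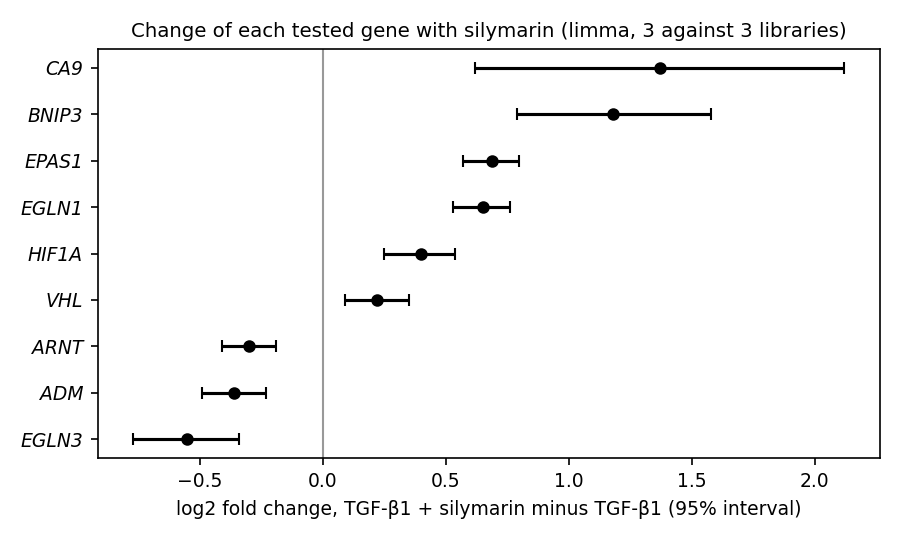
Log2 fold change of the 9 tested genes (horizontal axis, TGF-β1 plus silymarin minus TGF-β1) with 95% intervals from limma. CA9 and BNIP3 have the highest values and the widest intervals, and EGLN3, ADM and ARNT lie below 0.

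Levels of different genes were compared per kb of exon, using the merged exon length of each gene in GENCODE 29, which may differ from the lengths used in counting. With TGF-β1, ADM stood first at 702 ± 7.5 normalized reads per kb (SD, n = 3), followed by VHL at 343 ± 13.9 and EPAS1 at 333 ± 3.21, which overlapped. ARNT (234), EGLN1 (208) and HIF1A (147) came next, each without overlap with its neighbour. EGLN3 (28.4), BNIP3 (5.02) and CA9 (2.77) were the scarcest measured genes. With silymarin, EPAS1 (538 ± 32) reached the range of ADM (548 ± 41.8), and EGLN1 (326 ± 14.2) stood above ARNT (189 ± 3.6). HIF1A (194 ± 13.2) overlapped ARNT. EGLN3 (19.3), BNIP3 (11.8) and CA9 (8.2) were still last, in that order.

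**Figure D4:**
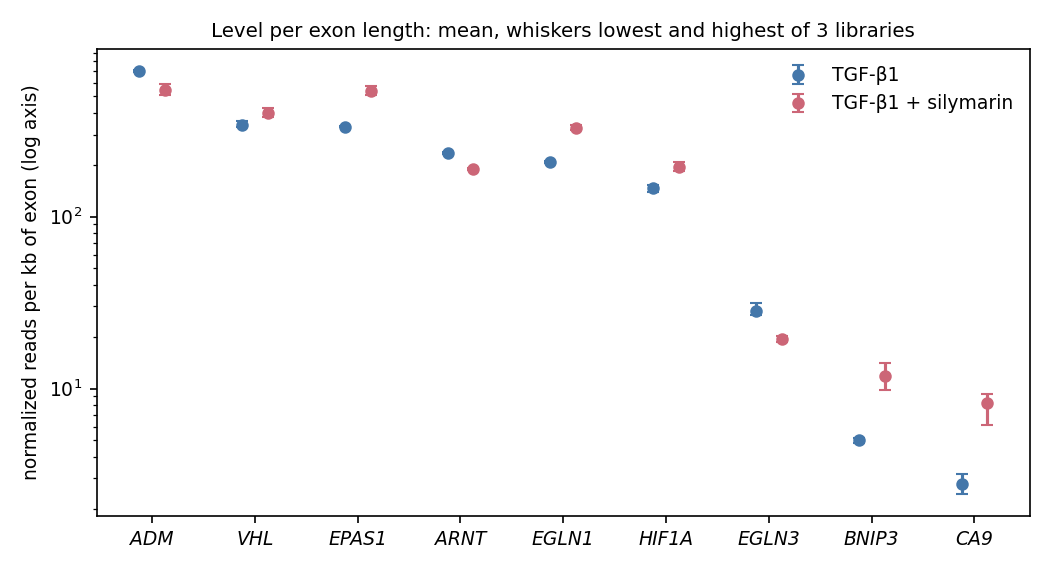
Normalized reads per kb of exon (vertical log axis) of 9 genes in the TGF-β1 group and the silymarin group; points are means and whiskers reach the lowest and highest of 3 libraries. EPAS1 meets ADM in the silymarin group, and EGLN1 and ARNT exchange places.

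Other genes of the pathway, from lists that leave out the 10 genes above, were counted in the same fit. Some genes are in more than 1 list, so the counts overlap, and together the lists hold 133 different tested genes. Among HIF partners, stability factors and coactivators, 1 of 24 tested genes rose, 3 fell and 20 did not pass, with a median log2 fold change of -0.02. The share called was 16.7%, beside 34.2% of all tested genes. HIF1AN, the asparagine hydroxylase that blocks coactivator binding, was at 2093 ± 23 and 2139.9 ± 59.9 normalized counts (SD, n = 3; adjusted p = 0.667). SIAH1, a ligase that targets EGLN enzymes, fell by 0.46 on the log2 scale (limma adjusted p = 1.9e-05), the transmembrane hydroxylase P4HTM by 0.51 (0.000976) and the coactivator CREBBP by 0.18 (0.0155). The chaperone gene HSP90AB1 rose by 0.23 (adjusted p = 0.00169). CREBBP was not called when TGF-β1 replicate 1 or 3 was left out (adjusted p = 0.0561 and 0.0904). Without silymarin replicate 2, 4 of the 24 genes of this list rose and 4 fell. In that setting 3474 of all 17078 tested genes were called higher and 3709 lower.

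HIF targets of glucose use and pH rose in 14 of 25 cases, fell in 4 and did not pass in 7. Of all tested genes, 16.0% were called higher and 18.2% lower. The median of the list was 0.24, against 0.00 over all tested genes. Lactate dehydrogenase LDHA went from 10274 ± 227 to 14656 ± 1131 normalized counts (SD, n = 3), a gain of 0.51 on the log2 scale (limma adjusted p = 1.0e-05). The monocarboxylate transporter SLC16A1 rose by 0.49 and the glycolysis activator PFKFB3 by 0.46. The glucose transporter SLC2A1, a hallmark HIF target, fell by 0.59 (adjusted p = 2.0e-05), from 7617 ± 249.5 to 5081 ± 563.

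Secreted and vascular HIF targets, with a median of 0.44, rose in 10 of 15 tested cases and fell in 2. The shares over all tested genes were 16.0% higher and 18.2% lower. LOX, a lysyl oxidase counted among the 10, passed the filter on low values only through its silymarin libraries (5.96 ± 2.1 and 17.2 ± 2.41 normalized counts, SD, n = 3). With any 1 silymarin library left out, 14 genes of the list were tested and 9 rose. VEGFA, the main angiogenic growth factor, was at 2268, 2141 and 2349 normalized counts with TGF-β1 and at 5757, 5139 and 5739 with silymarin, so that every silymarin library was higher (log2 fold change 1.30, adjusted p = 2.3e-09). The lipase inhibitor ANGPTL4 had a log2 fold change of 2.73 and the lysyl oxidase LOXL2 of 2.25. IGFBP3, an IGF-binding protein, fell by 0.83 (adjusted p = 1.2e-08). The red cell hormone gene EPO was at 4.05 normalized counts in TGF-β1 replicate 3 and listed at 0 in the other 5 libraries.

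Targets of feedback, transcription and stress had 8 of 21 members higher and 3 lower, with a median of 0.05. The transferrin receptor TFRC rose by 2.12, haem oxygenase HMOX1 by 1.53, and the circadian repressors BHLHE41 and BHLHE40 by 0.61 and 0.40. The 3 called lower were NDRG1 (log2 fold change -0.33), PPFIA4 (-0.86) and ZNF395 (-0.26). Among targets of mitochondria and mitophagy, 2 of 11 rose, 1 fell and 8 did not pass (median 0.09): BNIP3L, NDUFA4L2 (0.58, adjusted p = 0.00907) and, falling, the iron-sulfur scaffold ISCU (-0.28, adjusted p = 0.00116). NDUFA4L2 was not called by DESeq2 on the recovered reads of 5 libraries (adjusted p = 0.0836). Several of these targets also answer to other factors, so the counts do not measure HIF activity. The share called was 72% in the glucose list, 80% in the secreted list, 52.4% in the feedback list and 27.3% in the mitochondrial list, beside 34.2% of all tested genes.

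The other iron- and oxygen-dependent dioxygenases were called about as often as all genes. Of 39 tested genes 4 rose, 8 fell and 27 did not pass (30.8% called, beside 34.2% of all tested genes), with a median of -0.01. The collagen hydroxylase P4HA1 rose by 0.31 (adjusted p = 0.00043), whereas the lysyl hydroxylase PLOD3 fell by 0.38 and the DNA demethylase TET2 by 0.33. Among the other carbonic anhydrases, 1 of 6 tested genes fell and none rose by limma (16.7% lower, beside 18.2% of all tested genes). That gene was the cytosolic CA2, from 8013 ± 237 to 4932 ± 242 normalized counts (SD, n = 3), with -0.70 as the log2 fold change (limma adjusted p = 2.0e-07). CA12, the other cell-surface isoform responsive to HIF, was at 60.1, 53.5 and 43.5 with TGF-β1 and at 44.9, 31.9 and 42.4 with silymarin, with overlapping groups.

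**Figure D5:**
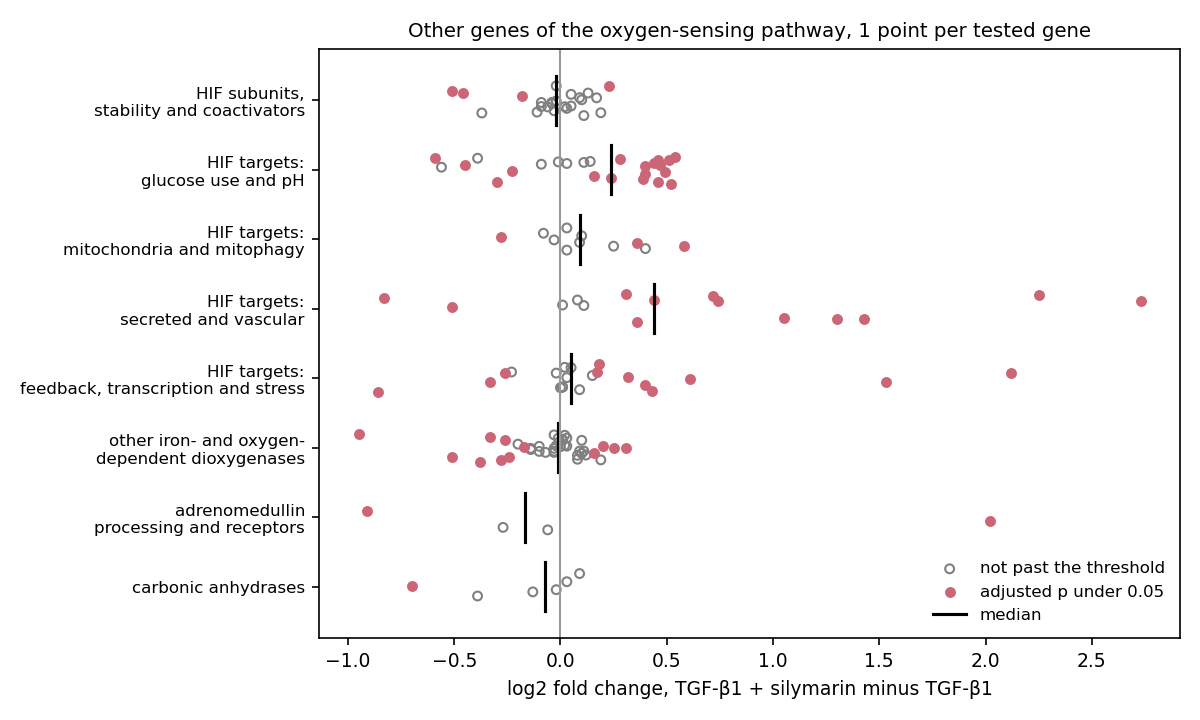
Log2 fold change (horizontal axis, TGF-β1 plus silymarin minus TGF-β1) of each tested gene in 8 lists around the oxygen-sensing pathway; filled points passed an adjusted p of 0.05 in limma and the vertical bars are medians. The glucose and secreted target lists have the highest medians, 0.24 and 0.44.

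For CA9, BNIP3 and EPAS1, the called genes with the largest changes, the most similar profiles were sought among 13489 other genes averaging 50 normalized counts or more. Similarity was the mean absolute difference of centred log2 values over 6 libraries. EPAS1 lay closest to the fatty acid desaturase FADS1 (0.013), whose log2 fold change was also 0.69. BNIP3 lay closest to the potassium channel gene KCNMA1 (0.086) and to the phosphatase gene DUSP5 (0.089). CA9 lay closest to the acetyl-CoA synthetase ACSS2 (0.075) and to RP11-511I2.2 (0.088). The 6 libraries form 2 groups, so genes with a group difference of like size lie close on this measure.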

How the data were processed

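The 6 HaCaT libraries were made from poly(A) RNA after mirVana extraction, using a stranded Illumina kit, per the labels' protocols. Tools named in the submitters' processing notes are TopHat2 2.1.1, featureCounts, Subread 1.5.2, cutadapt 1.15, bcl2fastq 2.18.12 and DESeq2. For build, annotation and strand setting, none was given in the sources used here. Deposited values are a signal of normalized read counts. Within each library they were whole multiples of 1 step (tolerance 1e-06), for 100% of values in all 6. In TGF-β1 replicate 3 that step, 1.01136, was too near 1 to be accepted as a read, so read counts were recovered for 5 libraries.

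For the main comparison, log2(value + 1) was fitted by limma 3.58.1 (R 4.3.3, trended prior) across genes, with no term besides the group. Tested were the 17296 genes that reached 10 normalized counts in 3 or more libraries, and p-values were adjusted over them by Benjamini-Hochberg, with 0.05 as the threshold. Fold changes on this scale understate the change of low genes. Because the authors' size factors equalise the libraries, a change in total RNA would not show. Ratios used exact permutation tests. P-values of limma set the group difference against the spread between the 3 samples of a group, moderated by a trend over all tested genes. The procedure was tested on simulated data.

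The members and lists were chosen with earlier results of these data known. Named genes were the 10 members, up to 4 called genes with the smallest p per list, BNIP3L, and 2 genes of nearest profile for each of 3 members. A gene that this rule names is not reported here. HIF1AN, ARNT2, HIF3A, EPO, LOX, CA12, NDRG1, PPFIA4, ZNF395, CALCRL, RAMP2, RAMP3, the markers and overlapping genes were named after their values were seen. Positions matched 89.7% of identifiers in GENCODE 29 and may differ from the authors' build; promoter sequences are RefSeq's. Alternatives were other scalings, filters, pseudocounts and thresholds, a replicate block, each library left out, a GC and length correction (16828 genes), and edgeR 4.0.16 and DESeq2 1.42.0 on recovered reads.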

Additional observations from a re-analysis of the deposited data

How the results depend on the processing

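Over 158 values of the 9 tested genes under the alternatives, 152 kept direction and call, 6 lost the call and 0 reversed. The 6 were VHL in 5 settings, among them a threshold of 0.01 (adjusted p = 0.0118), and CA9 with DESeq2. Of 555 values of 31 other named genes, 14 lost the call (CREBBP, ADM5 and NDUFA4L2). The number of the 9 called was 7 with at least 5 CPM in 3 libraries, where BNIP3 and CA9 were not tested, 7 with DESeq2, 8 with edgeR or a threshold of 0.01, and 8 to 9 with 1 library left out. Over all genes, 5912 calls among 17296 tested genes became 3493 among 29052 with DESeq2 on the reads of 5 libraries (1544 higher, 1949 lower). The calls numbered 3861 at 0.01 (1667 higher, 2194 lower), and 4278 to 7183 with 1 library left out. They were 4675 of 17843 tested genes with edgeR and 4647 of 11563 with at least 5 CPM in 3 libraries. The ratio changes ranged with 1 library left out from 0.26 to 0.32 for EPAS1 to HIF1A, from -1.25 to -1.14 for EGLN3 to EGLN1 and from 0.69 to 0.91 for BNIP3 to BNIP3L. Same-numbered replicates did not deviate together (correlations across genes -0.04, 0.04 and 0.02), so the numbers were not taken as pairs. With the replicate block 5678 genes and 9 of the 9 were called. The ratio of EGLN2 to EGLN1 could not be computed. Depth limits CA9 most, with 5 to 18 recovered reads.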
